A study of Mus musculus with 11 samples.

Results

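The promoters described here belong to mouse genes that carry a provisional symbol, either Gm followed by a number or a cDNA clone name ending in Rik. They were taken by that symbol rule from the promoter table on chromosomes 1 to 19, and 6825 promoters met it, of which 5450 had a Gm symbol and 1375 a Rik symbol. They made up 29.4% of the 23176 autosomal promoters in the table, which holds 24391 promoters over all chromosomes. A further 15586 autosomal promoters had any other symbol and served as the comparison, called other named genes below, while 765 autosomal promoters without a symbol and 641 Gm or Rik promoters on the sex chromosomes were left aside. DNA methylation was measured by reduced representation bisulfite sequencing (RRBS) in the whole pancreas of newborn (P0) wild type C57BL/6N mice whose mothers had been injected on embryonic days 14.5, 15.5 and 16.5. The amphetamine group held 5 pups (3 females and 2 males) of mothers given 10 mg/kg amphetamine, and the control group held 6 pups (3 females and 3 males) of mothers given saline. The files give each promoter's mean, SD, lowest and highest mouse, number of mice without reads and coverage per group, but no value per mouse, and the labels do not say which pups shared a litter. The p-values below thus measure the spread between pups, and the cells of the whole organ cannot be told apart.

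Gm symbols are given to gene models predicted from the genome sequence, and Rik symbols to clones of the RIKEN full-length cDNA collection, until a gene is studied and renamed. The models are of very different kinds: processed pseudogenes, which are reverse-transcribed copies of an mRNA inserted without their parent's promoter, long non-coding RNAs, small nuclear and nucleolar RNAs, microRNAs, and protein-coding genes not yet characterised. In mammals, most CpGs outside CpG islands are methylated, whereas CpG islands at promoters of widely expressed genes are usually free of methylation. RRBS reads only CpGs close to the recognition sites of its restriction enzymes, here MspI, which cuts at CCGG, and TaqI, which cuts at TCGA, so that a promoter with few sites yields few CpGs to measure. A promoter in the table spans 2000 bp, in 83.4% of those with an annotated gene from 1500 bp before the gene start to 500 bp after it.

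The following windows of 200 bases show how different the measured sequence can be among these promoters. They are given 5′ to 3′ on the plus strand of the mouse genome (RefSeq GRCm38.p6, the sequence of build mm10), with CCGG and TCGA in capitals. Each was chosen among the stretches of its promoter outside annotated exons that hold a whole cut site. It is the stretch of these with the most CpGs within 50 bp of a cut site. The 5 promoters were chosen after their values were seen: a CpG-dense bidirectional promoter, a promoter of a gene since renamed Spx, a pseudogene promoter with reads in all mice, a promoter with 1 cut site inside it, and the sole promoter called below.
2810013P06Rik, chr8:123041716-123041915: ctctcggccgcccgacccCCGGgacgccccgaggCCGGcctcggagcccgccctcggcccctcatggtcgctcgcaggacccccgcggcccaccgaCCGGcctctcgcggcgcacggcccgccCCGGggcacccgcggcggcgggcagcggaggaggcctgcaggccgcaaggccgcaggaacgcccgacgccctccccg
B230216G23Rik, chr6:142413241-142413440: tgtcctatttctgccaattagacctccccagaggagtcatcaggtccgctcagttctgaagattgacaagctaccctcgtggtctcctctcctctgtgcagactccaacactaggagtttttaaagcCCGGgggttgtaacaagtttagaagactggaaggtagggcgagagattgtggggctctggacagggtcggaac
Gm6141, chr3:19584591-19584790: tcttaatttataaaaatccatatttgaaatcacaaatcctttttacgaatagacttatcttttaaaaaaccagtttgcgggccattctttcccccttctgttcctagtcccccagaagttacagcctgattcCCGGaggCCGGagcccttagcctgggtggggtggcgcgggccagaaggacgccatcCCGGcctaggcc
Gm25303, chr15:36798272-36798471: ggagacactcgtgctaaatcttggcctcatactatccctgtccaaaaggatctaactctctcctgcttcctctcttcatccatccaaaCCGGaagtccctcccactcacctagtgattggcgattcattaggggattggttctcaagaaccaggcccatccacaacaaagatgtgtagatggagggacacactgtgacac
Gm27148, chr9:73677880-73678079: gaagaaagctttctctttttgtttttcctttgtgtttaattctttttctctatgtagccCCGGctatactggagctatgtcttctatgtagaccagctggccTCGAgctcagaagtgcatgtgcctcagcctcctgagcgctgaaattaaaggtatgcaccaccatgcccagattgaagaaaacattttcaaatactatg

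The window of 2810013P06Rik held 4 CCGG sites and 33 CpGs, all 33 within reach of a site, out of 204 reachable CpGs in the whole promoter. That promoter had a mean coverage of 1904 in amphetamine and 1458 in control mice, and its methylation level was 2.54% ± 0.820 (SD, n = 5) and 2.28% ± 1.10 (SD, n = 6). The window of Gm6141 held 3 CCGG sites and 6 reachable CpGs of 16 in the promoter, and that of B230216G23Rik held 1 CCGG site and 3 of 13. The window of Gm25303 contained all 3 reachable CpGs of its promoter, 2 of them within 50 bp of its single CCGG and 1 near a site just outside the promoter, and that of Gm27148 held 1 CCGG and 1 TCGA with 3 of 7 reachable CpGs. The letters CCGG or TCGA, searched once since each reads the same on either strand, occurred in 99.97% of Gm and Rik promoters and in 99.99% of the other named promoters, so that the number of sites rather than their presence differed. The median number of cut sites was 5 among Gm and Rik promoters and 10 among other named promoters. Which of these CpGs gave reads in which mouse is not recorded in the region table.

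Gm promoters had a lower deposited coverage than those of other named genes, and Rik promoters lay in between. The coverage of a promoter is given as a mean over the mice of a group. The lowest and highest mouse's coverages were whole numbers throughout the table. Averaged over the 11 mice, the median coverage was 93.8 (quartiles 33 and 273) for all 6825 promoters, 76.7 for Gm, 223 for Rik and 283 (quartiles 117 and 488) for other named promoters. Reads in all 11 mice were present at 80.1% of the Gm and Rik promoters, that is at 78.3% of Gm and 87.2% of Rik, against 90.4% of other named promoters. Each group had a mean coverage of 10 or more at 89.1% of Gm and Rik promoters and at 96.4% of the others. Coverage was higher in the amphetamine group, with medians of 105 and 84.5 in amphetamine and control mice, and the ratio of the summed coverages, amphetamine to control, was 1.245 at Gm and Rik promoters and 1.237 at promoters of other named genes.

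**Figure D1:**
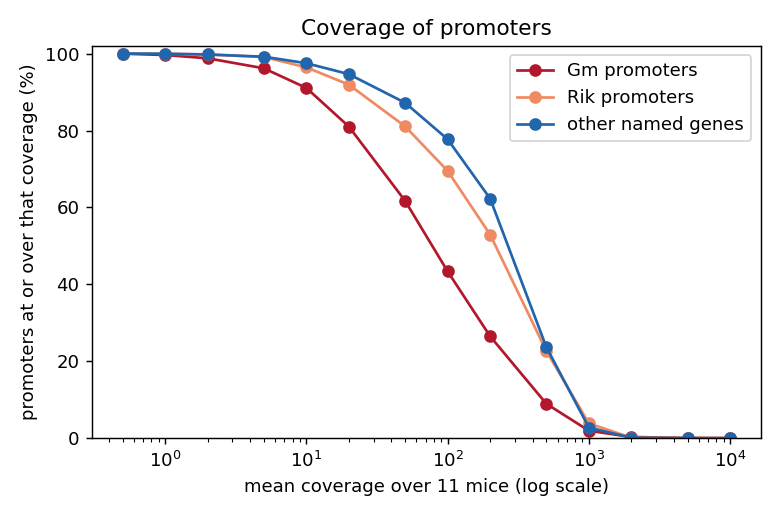
Share of promoters (y axis, %) whose mean coverage over the 11 mice reached the value on the x axis (log scale), for Gm promoters, Rik promoters and promoters of other named genes. At a coverage of 100, 43.4% of Gm, 69.5% of Rik and 77.7% of other named promoters remained.

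Fewer CpGs within reach of a cut site went with the lower coverage. The median promoter had 14 CpGs within 50 bp of a cut site among Gm and Rik promoters (12 for Gm and 34 for Rik) and 44 among other named promoters. Among promoters with 10 to 19 such CpGs, the median coverage was 75.8 for Gm, 78.8 for Rik and 80.6 for other named promoters, and at 30 to 49 it was 270, 275 and 267. With 0 to 9 reachable CpGs, reads in all 11 mice were present at 63.0% of Gm and Rik promoters and at 58.5% of other named ones, and with 10 to 29 the shares were 82.5% and 82.2%. At matched numbers of reachable CpGs, provisional and established symbols were thus covered alike to within these margins, whereas 34.9% of Gm and Rik promoters and 10.6% of the other named fell into the lowest class.

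A group mean of exactly 0% or 100% in at least 1 group was found at 623 Gm and Rik promoters (9.13%), against 6.47% of other named promoters. Of these 623, 77.2% lacked reads in at least 1 mouse, and among promoters with reads in all 11 mice the share fell to 2.60%. Fully methylated means were more frequent than empty ones: 281 of the 6825 promoters had a control mean of 100% and 99 a control mean of 0%, while among other named promoters 208 stood at 100% and 448 at 0%. Within 0 to 9 reachable CpGs, 15.9% of Gm and Rik promoters and 18.2% of other named promoters had such a value. Gm28724, a processed pseudogene on chromosome 1 and the least covered promoter with reads in every mouse, is an example: all 5 amphetamine and all 6 control mice stood at 100%, on mean coverages of 2.40 and 1.83. The next in that order, the small nuclear RNA gene Gm25587 (66.7% ± 42.5 in amphetamine and 83.3% ± 25.8 in control mice) and the long non-coding RNA gene Gm28826 (100% ± 0 and 66.7% ± 40.8), had mean coverages between 2 and 2.67, and single mice ranged from 0% to 100% in at least 1 group.

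The methylation level separated Gm from Rik promoters. In control mice, the median level was 75.2% (quartiles 23% and 88.7%) at Gm promoters, 5.75% (1.98% and 56.7%) at Rik promoters and 3.79% (1.79% and 19.9%) at promoters of other named genes. Levels under 10% were found at 20.8% of Gm, 57.0% of Rik and 67.6% of other named promoters, and levels over 90% at 21.7%, 7.27% and 4.88%. Amphetamine mice had medians of 75%, 5.23% and 3.74%. The typical spread between control mice, as the median SD, was 9.36 percentage points at Gm promoters, 3.61 at Rik promoters and 2.81 at other named promoters. On every autosome the median of Gm and Rik promoters, which lay between 42.8% on chromosome 12 and 77.1% on chromosome 4, was above that of other named promoters, which lay between 2.97% and 4.99%.

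**Figure D2:**
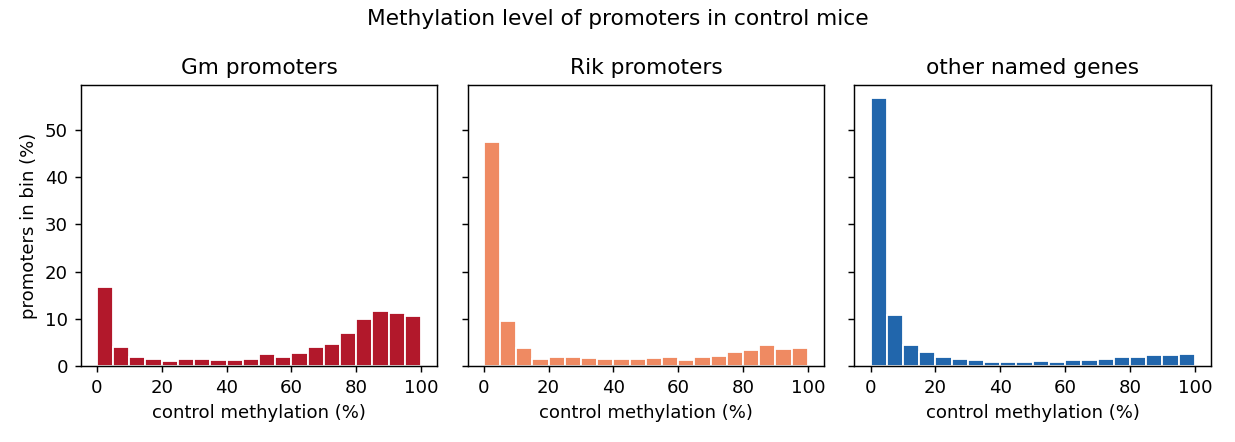
Share of promoters (y axis, %) in bins of 5 percentage points of control methylation (x axis, mean of up to 6 mice), drawn separately for Gm promoters, Rik promoters and promoters of other named genes. Gm promoters have a broad upper mode and a smaller lower mode, while Rik and other named promoters pile up under 5%.

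Unlike coverage, the level was not alike at matched numbers of reachable CpGs. At 50 or more such CpGs all classes were low, with control medians of 2.71% for Gm, 2.28% for Rik and 2.42% for other named promoters, and at 0 to 4 all were high, with 85.2%, 79.4% and 79.8%. In between, Gm promoters stayed methylated at CpG numbers at which the others did not: at 20 to 29 reachable CpGs the medians were 68.5% for 547 Gm promoters, 6.11% for 140 Rik promoters and 6.50% for 1621 other named promoters. At 10 to 19, they were 80.5%, 61.0% and 52.1%. A CpG island of the deposited island table overlapped 21.6% of Gm, 57.2% of Rik and 68.6% of other named promoters. With an island the medians were 3.35%, 2.48% and 2.56%, and without one they were 82.1%, 65.7% and 55.2%. These differences between sets of promoters are descriptions without a test, since promoters of a class share mice, enzymes and neighbouring genes and are not replicates.

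**Figure D3:**
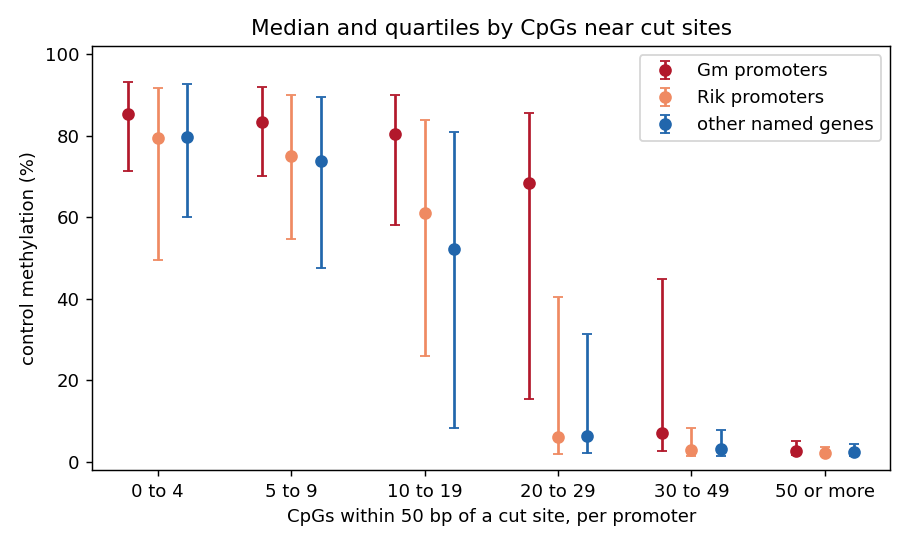
Control methylation (y axis, %, median with quartiles as bars) of Gm, Rik and other named promoters by the number of CpGs within 50 bp of a cut site (x axis). At 20 to 29 such CpGs the Gm median lies at 68.5% and the other medians near 6%.

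The kind of gene gave further structure, as far as the GENCODE M21 annotation, matched by Ensembl identifier for 6580 of the 6825 promoters, names it. Pseudogenes formed the largest kind, with 1850 promoters at a median control level of 84.3%, and the 373 pseudogenes with another symbol stood at 84.0%. Promoters before provisional small RNA genes were also methylated, with medians of 79.8% for 365 small nuclear RNA genes, which belong to the splicing machinery, 80.2% for 327 small nucleolar RNA genes, which guide RNA modification, and 78.0% for 316 microRNA genes. MicroRNA genes with an established name had a median of 70.5% (n = 456). Small nucleolar RNA genes with an established name had a median of 8.47% (n = 86) and 60.5% of them overlapped a CpG island, against 13.1% of the provisional ones. Protein-coding genes divided by symbol: 463 Gm promoters had a median of 44.8%, 487 Rik promoters 5.01% and 14121 other named promoters 3.38%. Antisense RNAs stood at 35.3% for Gm, 6.67% for Rik and 15.8% for other named genes, and long intergenic non-coding RNAs at 50%, 27.1% and 20%. Gm was thus highest in each of these 3 kinds, while the order of Rik and other named genes varied. Gm promoters also had the fewest reachable CpGs in each kind. The medians for Gm, Rik and other named promoters were 18, 36 and 46 for protein-coding genes. They were 19, 33 and 25 for antisense RNAs and 13, 19 and 21 for long intergenic non-coding RNAs. The lowest kind was the bidirectional promoter long non-coding RNA, transcribed away from a neighbouring gene out of a common promoter, where 78 promoters had a median of 2.36%, 92.3% overlapped a CpG island and all had reads in all 11 mice. Even there, Gm16196 and 1700030M09Rik, named after their values were seen, had no island and control levels of 85.2% ± 12.3 and 84.1% ± 15.9 (SD, n = 6).

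**Figure D4:**
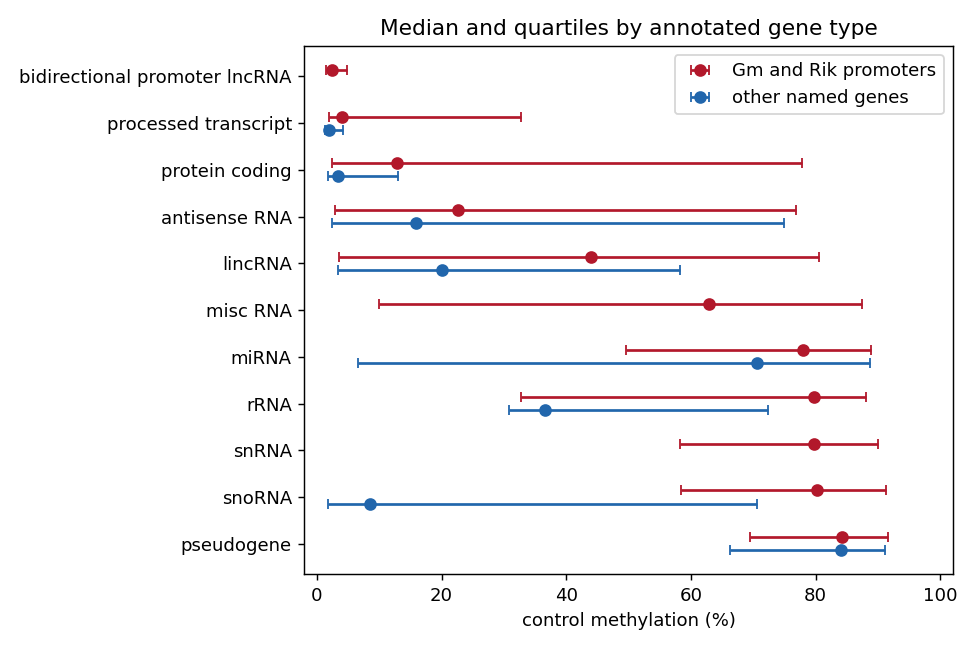
Control methylation (x axis, %, median with quartiles as bars) by annotated gene type (y axis) for Gm and Rik promoters and for promoters of other named genes, where a type had at least 10 promoters. Medians of provisional genes run from 2.36% for bidirectional promoter long non-coding RNAs to 84.3% for pseudogenes.

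Among Rik promoters, the clone prefix names the RIKEN cDNA library a gene was first found in. The 501 promoters of testis clones had a median control level of 27.6% (quartiles 2.45% and 81.6%), the 126 of embryo and embryonic stem cell clones 3.30%, the 35 of pancreas clones 4.78% and the 713 of other clones 4.33%. Testis clones also had fewer reachable CpGs, with a median of 21 against 42, 45 and 39. Examples, again chosen after the values were seen, are 1700019O17Rik, since renamed Tex44, at 70.8% ± 13.5, and 4930469G21Rik, since renamed Tex50, at 96.6% ± 6.72 in control mice, against 1110058L19Rik, since renamed Sdhaf4 for an assembly factor of the mitochondrial succinate dehydrogenase, at 2.78% ± 4.30. In all, 303 promoters belonged to genes that GENCODE M21 lists under a name other than a Gm, Rik, accession-like or microRNA (Mir) name. Genes whose new name had 1 of these forms were counted as still provisional. Renamed Rik promoters (n = 163) had a median of 3.54% and those still provisional (n = 1187) 6.16%, and for Gm the values were 70.1% (n = 140) and 75.3% (n = 5090).

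A neighbour with an established name went with a larger difference in level than the renaming. The interval overlapped the promoter of another named gene at 1362 Gm and Rik promoters (20.0%), whose median control level was 2.88% (3.27% for Gm and 2.39% for Rik), and did not at 5463, with a median of 77.7% (80.3% and 26.2%). The overlapping promoters also had more reachable CpGs, with a median of 56 against 11. A CpG island overlapped 78.6% of them, against 16.4% of those without a named neighbour. Whether the level differs by neighbour at matched CpG numbers was not tested. Overlapping intervals contain the same reads in part, so that their values are not independent of the named promoter. In the gene bodies of the gene table, Gm symbols had a median control level of 75.8% (n = 4698), Rik symbols 55.3% (n = 1767) and other named genes 45.1% (n = 17323). Of the 4656 Gm and Rik genes with a measured promoter and body, 56.2% were more methylated in the body, with 51.2% for Gm and 69.5% for Rik.

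The 3 most covered Gm and Rik promoters with reads in all mice were annotated as different kinds of gene. Gm26917, annotated as a long intergenic non-coding RNA gene on chromosome 17 (chr17:39841513-39843512), had mean coverages of 34147 and 24487 in amphetamine and control mice. Its levels were 21.7% ± 3.19 (lowest 16.6%, highest 25.4%, n = 5) and 19.6% ± 0.946 (18.3% to 20.8%, n = 6). Gm23935, annotated as a microRNA gene on chromosome 16 (chr16:11142625-11144624), had coverages of 18009 and 12013 and levels of 13.0% ± 3.93 and 9.99% ± 3.60. The protein-coding 3110070M22Rik on chromosome 13 (chr13:119487884-119489883) had coverages of 8835 and 6170 and, unlike most promoters with an island, levels of 88.5% ± 6.24 and 86.6% ± 5.88. Repeats were masked over 59.5%, 31.6% and 26.6% of these promoters, against a median of 20.6% for all Gm and Rik promoters. No difference between the groups passed the test for these 3 (adjusted p = 0.958, 0.958 and 0.976 by limma), and a part of reads from other copies of the sequence in their coverage was not tested. A mean coverage over 4000 was found at 7 Gm and Rik promoters and at 4 of the 15586 other named promoters.

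Of the provisional symbols that belong to the trypsinogen family, the digestive protease precursors of acinar cells, 1 of 6 listed genes had a promoter in the table. This gene, 1810009J06Rik on chromosome 6 (chr6:40963254-40965253), stood at 83.4% ± 14.6 (67.3% to 97.8%, n = 5) in amphetamine and at 84.4% ± 8.71 (73.3% to 99.0%, n = 6) in control mice, so that the groups overlapped, with an adjusted p of 1 (limma). For the tissue label, promoters of established acinar markers (8 of 12 with a promoter in the table) had a median control level of 63.1%, from 3.56% at Ptf1a, an acinar transcription factor, to 90.3% at the elastase gene Cela1. Islet markers (6 of 9) had a median of 3.82%, with 90% at the glucagon gene Gcg. Muscle markers (3 of 4) lay between 23.7% and 83.8%. Promoter levels do not measure transcripts, so that the labelled organ is not checked by these values.

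Between amphetamine and control mice, higher and lower levels were about equally frequent at Gm and Rik promoters. The median difference, amphetamine minus control, was 0 percentage points, with 3304 promoters higher, 3352 lower and 169 equal. The median absolute difference was 3.33 percentage points, against 1.33 at promoters of other named genes. At 0 to 9 reachable CpGs the values were 6.47 and 7.22. They were 4.49 and 3.33 at 10 to 29, and 0.975 and 0.931 at 30 or more. Differences over 25 percentage points occurred at 297 promoters (4.35%), of which 72.7% lacked reads in at least 1 mouse and whose median coverage was 17.5, and at 2.05% of other named promoters. With the moderated test of limma, 293 promoters (4.29%) had an unadjusted p under 0.05, 133 higher (1.95%) and 160 lower (2.34%) in amphetamine mice. Among all 23176 autosomal promoters the share was 4.15% (2.22% higher and 1.93% lower). The share was 4.66% for Gm, 2.84% for Rik and 4.07% for other named promoters. After Benjamini-Hochberg adjustment over the whole table, 1 of the 6825 promoters (0.0147%) had an adjusted p under 0.05, against 0.0129% of autosomal promoters. That promoter also met the thresholds of a difference over 25 percentage points and a fold change over 1.5, as did 0.00863% of autosomal promoters. In the gene bodies of Gm and Rik symbols, 295 of 6465 (4.56%) had an unadjusted p under 0.05, against 4.46% of all autosomal gene bodies, and 0 met the 3 thresholds by limma, against 0.00816%.

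The promoter that met the thresholds was that of Gm27148, a processed pseudogene on chromosome 9 (chr9:73676193-73678192), with 0% in 3 amphetamine mice and 100% in 3 control mice (adjusted p = 1.29e-05 by limma). Reads were absent in the other 2 amphetamine and 3 control mice. The mean coverage was 0.600 and 0.833, the highest in any mouse was 1 in amphetamine and 3 in control, and the SD was 0 in both groups. With a prior variance that follows the methylation level, its adjusted p was 0.150, and it was not eligible at a coverage of at least 10, with reads in all mice or with an SD above 0. The other largest differences also came from promoters without reads in some mice. Gm28085, an antisense RNA gene on chromosome 9, stood at 16.7% ± 28.9 (n = 3) and 100% ± 0 (n = 3), with mean coverages of 0.800 and 0.5 and an adjusted p of 0.924. 4930538K18Rik, since renamed Tmem269, stood at 100% in the 1 amphetamine mouse with reads and at 20% ± 44.7 in 5 control mice. Its mean coverages were 1 and 4.33. Gm28893 on chromosome 1 stood at 100% ± 0 (n = 2) and 25% ± 50 (n = 4), at mean coverages of 2.40 and 6 and with an adjusted p of 0.958 (limma).

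Among promoters with reads in all 11 mice and, in each group, a mean coverage of 10 or more, the smallest p among those higher in amphetamine mice belonged to Gm29261, an antisense RNA gene on chromosome 19 (chr19:59260920-59262919). Its level was 4.48% ± 0.994 (3.33% to 5.56%, n = 5) in amphetamine and 0.249% ± 0.410 (0% to 0.966%, n = 6) in control mice, on mean coverages of 293 and 238. Every amphetamine mouse was above every control mouse, but the difference of 4.23 percentage points had an adjusted p of 0.0991 (limma), which was 0.0358 with the level-dependent prior and between 0.225 and 0.448 under the other settings. The interval shares 458 bases with the promoter of Slc18a2, which encodes the vesicular monoamine transporter VMAT2, a known target of amphetamine. In mouse pancreas, however, the study obtained no reliable VMAT2 staining with any antibody it tried. The Slc18a2 promoter itself stood at 4.13% ± 0.646 and 0.224% ± 0.369 (adjusted p = 0.0569), and since the intervals overlap these are not separate observations. Gm12841, an antisense RNA gene on chromosome 4 whose promoter overlaps that of B4galt2, a galactosyltransferase gene, showed 3.78% ± 1.46 (1.98% to 5.56%) and 0.544% ± 0.612 (0% to 1.67%), with no overlap of the groups and an adjusted p of 0.705.

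Among the 4 higher and 4 lower promoters with the smallest p under these limits on mice and coverage, the difference was largest at B230216G23Rik (chr6:142411941-142413940), since renamed Spx for the peptide hormone spexin. Its level was 69.0% ± 28.8 (40% to 100%, n = 5) in amphetamine and 1.55% ± 3.80 (0% to 9.30%, n = 6) in control mice. The groups did not overlap, at mean coverages of 35.8 and 24.5, yet the least covered control mouse had a coverage of 1, and the difference of 67.4 percentage points had an adjusted p of 0.266 (limma), with 0.273 to 0.448 under the other settings. 2310014L17Rik, since renamed Rnf225 for a RING finger protein, showed 29.3% ± 7.62 (17.6% to 38.3%) against 5.73% ± 10.2 (0% to 25%), so that the groups overlapped, with an adjusted p of 0.705.

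Of the promoters lower in amphetamine mice, 3 were close to full methylation in controls. Gm25303, annotated as a microRNA gene on chromosome 15 (chr15:36798272-36800271), stood at 81.6% ± 6.33 (75% to 87.9%, n = 5) and 99.6% ± 1.02 (97.5% to 100%, n = 6). Its promoter has the single CCGG printed above, its mean coverages were 51.2 and 21.8, and its adjusted p was 0.104 by limma. The processed pseudogene Gm10108 on chromosome 5 stood at 86.5% ± 4.88 and 98.8% ± 1.82, with an adjusted p of 0.266. The processed pseudogene Gm6141 on chromosome 3 stood at 86.4% ± 4.50 and 97.9% ± 2.15, at mean coverages of 384 and 284 and with an adjusted p of 0.297. The processed pseudogene Gm5093 on chromosome 17 had an intermediate level, 50.3% ± 3.63 (44.3% to 53.3%) against 63.0% ± 3.74 (56.3% to 66.0%). Its mean coverages were 185 and 182 and its adjusted p was 0.282 (limma). The interval of Gm5093 overlaps the promoter of Slc22a7, so that its values are not independent of that promoter. In each of these 4 every amphetamine mouse lay below every control mouse, but none passed the adjusted test. Such separation of the groups was found at 25 (11 higher and 14 lower) of the 5466 Gm and Rik promoters with reads in all mice, or 0.457%, against 0.407% of all autosomal promoters with reads in all mice (0.238% higher and 0.169% lower).

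**Figure D5:**
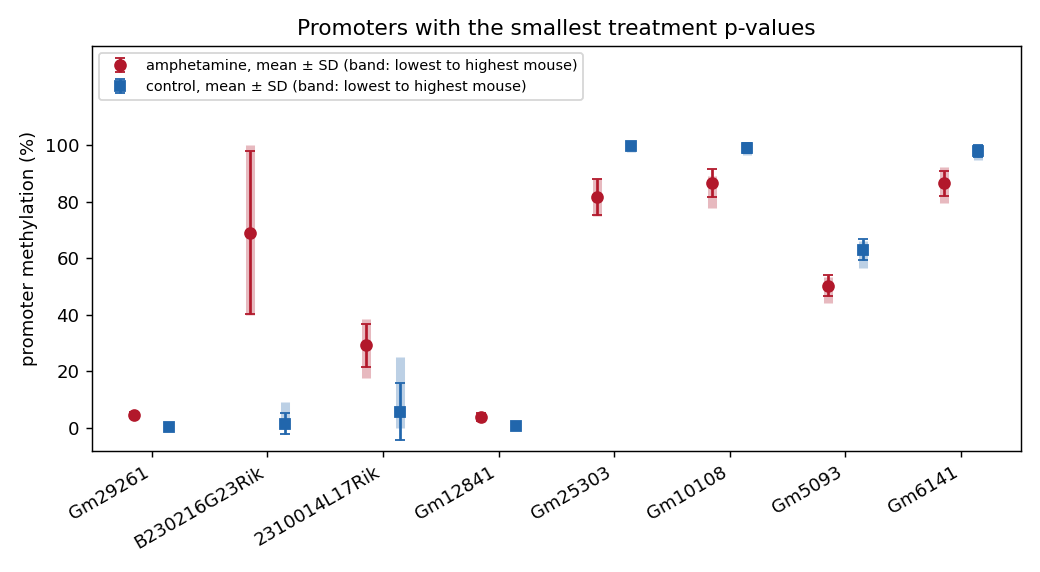
Promoter methylation (y axis, %) at the 4 promoters higher and the 4 lower in amphetamine mice with the smallest p-values among those with reads in all mice and a mean coverage of 10 or more in each group, for 5 amphetamine and 6 control mice. Points are group means, error bars SD, and pale bands run from the lowest to the highest mouse, which meet only at 2310014L17Rik.

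Between the sexes, with 6 females and 5 males of both treatments together, 342 Gm and Rik promoters (5.01%) had an unadjusted p under 0.05 by limma. Of these, 214 were higher (3.14% of all Gm and Rik promoters) and 128 lower (1.88%) in females. Among autosomal promoters the share was 4.63% (2.41% higher and 2.22% lower). An adjusted p under 0.05 by limma was reached by 7 Gm and Rik promoters (0.103%), against 0.0604% of autosomal promoters. Of the 7, 5 (0.0733% of all Gm and Rik promoters) also met the thresholds of difference and fold change, against 0.0388%. Of the 7, 3 had reads in all mice. Gm20204 on chromosome 8 (chr8:117209278-117211277) stood at 95.4% ± 4.38 (n = 6) in females and 65.2% ± 10.1 (n = 5) in males (adjusted p = 0.0140), at mean coverages of 59.7 and 70.4, but missed the fold threshold. D630024D03Rik, a long intergenic non-coding RNA gene on chromosome 11 (chr11:31824025-31826024), stood at 52.3% ± 9.68 and 10.9% ± 15.0 (adjusted p = 0.0373, or 0.0531 with the level-dependent prior). Gm20523, a pseudogene on chromosome 17, stood at 92.0% ± 1.95 and 85.2% ± 1.99 (adjusted p = 0.0383, or 0.126).

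The other 4 lacked reads in 5 of the 11 mice. Gm13381 and Gm13052 showed 100% against 0% in opposite directions, in 4 females and 2 males each. Gm11340 was measured in 5 females and 1 male, and 5330429C05Rik in 3 and 3. Among promoters lower in females that met the limits on mice and coverage used for treatment, Gm26632 and Gm11733 had the smallest p-values. Gm26632, an antisense RNA gene on chromosome 8, stood at 59.5% ± 14.8 in females and 95.1% ± 6.83 in males (adjusted p = 0.0655 by limma). Its mean coverages were only 34 and 19.2. The protein-coding Gm11733 on chromosome 11 stood at 20.9% ± 7.05 and 43.2% ± 10.4 (adjusted p = 0.137 by limma), at mean coverages of 818 and 916. At Gm20204 and D630024D03Rik, the treatment groups differed by 8.67 and 2.81 percentage points, with adjusted p of 0.959 and 1 (limma).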

How the data were processed

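RRBS libraries of P0 pancreas DNA were digested with MspI and TaqI and sequenced as single-end reads of 50 bp. Per the study's methods, the authors aligned the reads with Bismark to mm10 in the NextFlow methylseq pipeline (Dockerfile 1.3) and summarised CpGs over regions with RnBeads. The deposited tables hold, for each promoter, gene and CpG island, the mean methylation fraction of each group (0 to 1, printed here as percent), its SD, lowest and highest mouse, the number of mice without reads, and the mean coverage as deposited by the authors, whose unit (reads summed over CpGs or not) is not stated. They also hold the authors' own comparisons (differences, log2 quotients, p-values and ranks), which were not used. Tables of the other region types were not used here.

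Members were found by symbol, and annotation came from GENCODE M21 by Ensembl identifier. The members and gene lists were chosen with earlier results of these data known. Groups were compared by the moderated test of limma 3.58.1 (R 4.3.3), computed from each group's mean, SD and number of mice with reads over all 24391 promoters, two-sided, with Benjamini-Hochberg adjustment over the table. It was checked on simulated data for promoters with reads in all mice and a control SD above 0. Promoters with missing mice, such as that of Gm27148, were not covered by this check. Promoters were called at an adjusted p under 0.05, a difference over 25 percentage points and a fold change over 1.5 (with 0.01 added to each fraction). A group with 1 mouse has no SD, and the spread then came from the other group. Promoters named for treatment were the 4 higher and 4 lower with the smallest p among those with reads in all mice and, in each group, a mean coverage of 10 or more, and the 2 in each direction with the largest difference. For sex they were the 2 in each direction with the smallest p under the same limits, and for coverage the 3 highest and 3 lowest with reads in all mice. The comparison set keeps 149 symbols close to the rule, such as other clone names. Of the Gm and Rik symbols 5 occurred a second time, and 2 promoters shared 1 interval. Reachable CpGs were counted in GRCm38.p6, and island overlap needed at least 1 bp. Python 3.11.15 was used for summaries.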

Additional observations from a re-analysis of the deposited data

How the results depend on the processing

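No paired analysis was possible because the files hold group values only, with none per mouse. For the same reason leaving out each mouse in turn was not run, and no result can be tied to a mouse. The precision of each value is limited by coverage and by the number of mice with reads.

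The median coverage of 93.8 was 223 for Rik symbols alone, 30 at 0 to 9 reachable CpGs and 425 at 30 or more. The share with reads in all mice, 80.1%, was 78.8% over all chromosomes, 78.3% for Gm and 87.2% for Rik symbols alone, and 63.0%, 82.5% and 98.2% at 0 to 9, 10 to 29 and 30 or more reachable CpGs. The share with a mean of 0% or 100%, 9.13%, was 7.56% for Rik symbols alone, 15.9%, 7.98% and 2.21% in these classes, 5.44% at a coverage of at least 10 in both groups and, in an alternative chosen after seeing the data, 2.60% with reads in all 11 mice. The median control level of 68.2% was 5.75% for Rik symbols alone, 83.5% and 2.99% at 0 to 9 and 30 or more reachable CpGs and, also chosen after seeing the data, 77.7% without overlap of another named promoter.

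The treatment count of 1 was 0 with the level-dependent prior, at a coverage of at least 10, with reads in all 11 mice, with an SD above 0 and in gene bodies (limma in each case). It was 2 at an adjusted p under 0.1 (limma). At an unadjusted p under 0.05 it was 293 (4.29%), against 4.15% of all autosomal promoters (limma). The sex count of 5 was 3 with the level-dependent prior and 2 at a coverage of at least 10. It was 1 with an SD above 0 and 1 with reads in all 11 mice (the latter chosen after seeing the data). At an unadjusted p under 0.05 it was 342 (5.01%), against 4.63% of all autosomal promoters (limma). For the other promoter settings the share among all autosomal promoters was not counted, so these counts do not compare Gm and Rik promoters with the rest. Of the 22 named promoters, 1 for treatment and 7 for sex had an adjusted p under 0.05 in the main fit (limma). Of these, 4 were no longer past it with the level-dependent prior, while Gm29261 passed it there. The 4 were Gm27148 for treatment, and D630024D03Rik, 5330429C05Rik and Gm20523 for sex. Gm13381, Gm13052 and Gm11340 stayed past it, but did not reach the coverage limit of 10 in both sexes. These settings keep the group means, so that they cannot turn a direction.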
